A study of Mus musculus with 15 samples.

Results

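Brain messenger RNA of mice given JA after blockage of the middle cerebral artery was compared with that of mice given UA after the same procedure. The comparison rests on 3 JA libraries and 3 UA libraries, 6 of the 15 in the series, which were chosen by their treatment labels, and on the 14594 of 18931 listed genes that had at least 10 counts in 3 or more of these 6 libraries. All libraries were made from brain tissue, and the mice were Kunming, which is an outbred stock, in a model of middle cerebral artery occlusion (MCAO). The JA mice had occlusion and treatment JA, the UA mice occlusion and treatment UA, the vehicle mice occlusion and vehicle, and the sham mice a sham operation. The labels do not spell out JA and UA. The study title names jasminoidin, an iridoid glycoside of gardenia fruit, and the bile acid ursodeoxycholic acid, and concerns their combination. The sources used here do not give dose, timing, sex, age, brain region or hemisphere. No label states that each library is a different animal, and a p-value here therefore covers the scatter among these samples alone, part of which may be technical. Vehicle and sham libraries (3 each) are shown for their levels and were not tested.

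After an arterial occlusion, microglia and incoming macrophages take up debris and switch on lysosomal, lipid-handling and complement genes, and astrocytes raise intermediate filament genes. Immediate early genes are switched on in neurons by activity. Bile acids act through nuclear and membrane receptors and are made from cholesterol, which the brain removes mainly through the neuronal enzyme Cyp46a1.

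JA replicate 1 stood apart from the other JA libraries, and less so from UA replicate 2. On the first principal component, with 47.4% of the variance, it lay at 48.0, against -13.8 and -24.5 for JA replicates 2 and 3 and -16, 13 and -6.66 for the UA libraries. It differed by more than 2-fold from JA replicate 2 in 966 genes and from JA replicate 3 in 1158, while JA replicates 2 and 3 differed in 380 and the pairs of UA libraries in 443 to 543. Across the groups it differed from UA replicates 1, 2 and 3 in 1019, 581 and 908 genes, while the other JA libraries differed from UA libraries in 381 to 652. JA replicate 1 was the highest of the 6 libraries in 25.7% of genes and the lowest in 25.4%. Total counts were 18346180 to 20350883 in the 6 libraries, and no pair of replicates was as alike as repeat counts of the same library would be (the lowest chi-square per degree of freedom was 7.93). Results below are given with and without JA replicate 1.

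No gene passed the threshold of 0.05 for the adjusted p between JA and UA in edgeR's quasi-likelihood test. The lowest adjusted p was 0.468, and 487 genes (3.34%) had an unadjusted p under 0.05, of which 274 (1.88%) were higher and 213 (1.46%) lower in JA. Without JA replicate 1 there were 0 calls, the lowest adjusted p was 0.220, and 902 genes (6.18%) had an unadjusted p under 0.05. All 3 JA libraries lay above all 3 UA libraries in 729 genes (5.0%) and below them in 667 (4.57%). The median log2 fold change over all tested genes was 0.0031, with a median SE of 0.117, and 50.9% of genes had a positive value. The 95% interval of the log2 fold change lay within ±1 for 12394 genes (84.9%) and within ±0.5 for 9401 genes (64.4%), so for most genes the interval left out any difference above 2-fold. In bulk tissue, fewer cells of a type and less RNA per cell cannot be told apart. Because no gene passed, the genes below are described by their values and by whether the groups overlapped.

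Evc2 had the smallest p. Evc2 and its neighbour Evc encode partner proteins at the base of the primary cilium, where they take part in Hedgehog signalling. Evc2 (Entrez 68525; chromosome 5, 37338499 to 37425055, plus strand) had 18.2, 20.9 and 15.5 counts scaled to CPM (counts per 1e6) in the JA libraries, against 6.37, 8.42 and 8.0 CPM in the UA libraries. The groups did not overlap, and the log2 fold change was 1.26 ± 0.16 (SE, n = 3 each; edgeR adjusted p = 0.468). Vehicle libraries held 13.6 to 24.8 CPM and sham libraries 9.11 to 13.8 CPM, so every UA library lay below every vehicle and sham library while the JA libraries lay within their range. Without JA replicate 1 the value was 1.26 and the adjusted p 0.227. DESeq2, an alternative count test, called Evc2 with an adjusted p of 2.18e-06, while over the 19 other alternatives its adjusted p was 0.197 or above.

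Evc, on the opposite strand of the same stretch of chromosome 5, had 9.68, 10.7 and 7.49 CPM in the JA libraries, against 6.70, 6.75 and 5.54 CPM in the UA libraries. These groups did not overlap either, with a log2 fold change of 0.56 ± 0.19 (edgeR adjusted p = 0.999). The RefSeq start sites of Evc2 and Evc lie 1597 bases apart and point away from each other. The RefSeq promoter windows (GRCm38.p6, 250 bases before to 50 after the start) are shown because both genes were higher in all JA libraries. Capitals mark the longest stretch that the windows share, 13 bases on opposite strands. Evc2 is chr5:37338228-37338527, plus strand, and Evc is chr5:37336832-37337131, minus strand.
Evc2: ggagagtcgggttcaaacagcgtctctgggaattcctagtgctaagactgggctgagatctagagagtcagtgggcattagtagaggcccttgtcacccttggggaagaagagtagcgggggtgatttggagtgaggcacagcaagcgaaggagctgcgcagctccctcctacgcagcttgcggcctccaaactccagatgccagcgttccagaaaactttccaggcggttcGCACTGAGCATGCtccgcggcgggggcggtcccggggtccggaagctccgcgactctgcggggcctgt
Evc: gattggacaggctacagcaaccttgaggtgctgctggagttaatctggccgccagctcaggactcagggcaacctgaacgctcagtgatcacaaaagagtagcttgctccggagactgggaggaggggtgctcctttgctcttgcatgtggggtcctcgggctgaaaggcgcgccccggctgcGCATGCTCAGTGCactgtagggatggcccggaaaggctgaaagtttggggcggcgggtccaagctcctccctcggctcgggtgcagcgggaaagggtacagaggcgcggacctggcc
The stretch GCACTGAGCATGC, searched on both strands, occurs in 10 of 32851 mouse promoter windows (0.03044%). It is a description of the letters and names no factor.

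Of 14 tested genes of the primary cilium and planar cell polarity, 11 had a positive fold change, against 50.9% of all tested genes, and the list median was 0.10. In 3 of them (Evc2, Evc and Celsr1) all JA libraries lay above all UA libraries, and in 1 (Vangl2) all lay below, beside 5.0% and 4.57% of all genes. Celsr1, a cadherin of planar polarity, had 11.1, 10.6 and 9.85 CPM in the JA libraries, against 8.86, 6.75 and 8.30 CPM in the UA libraries. Vangl2, a membrane protein of the same pathway, had 15, 15.8 and 14.1 CPM in JA, against 17.2, 16.8 and 17 CPM in UA. The differences for Celsr1 and Vangl2 were small, with log2 fold changes of 0.40 ± 0.15 for Celsr1 and -0.18 ± 0.10 for Vangl2. Leaving out JA replicate 1 gave 0.53 for Evc, 0.36 for Celsr1, -0.19 for Vangl2 and a list median of 0.15. The ciliary gene Bbs4, which is not in this list, was among the lower genes of smallest p without JA replicate 1.

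Among genes with a mean of at least 1 CPM and no overlap between the groups, the 12 with the smallest p that were higher in JA included Cux2, Hapln4, Slc9a9 and Slf2. The share of genes with such functions among all tested genes was not counted, so no common function can be read from them. Cux2, a transcription factor of upper cortical layers, had 93.2, 91.6 and 97.0 CPM in JA, against 77.9, 74.3 and 80.3 CPM in UA (log2 fold change 0.28 ± 0.06, SE). Hapln4, a link protein of perineuronal nets, had 142, 128 and 124 CPM in JA, against 108, 107 and 102 CPM in UA (0.31 ± 0.07). Slc9a9, an endosomal sodium-proton exchanger, had 25.7, 25.2 and 22.8 CPM in JA, against 15.9, 19 and 19.4 CPM in UA (0.44 ± 0.11). Replicates of both groups lay close together for Cux2 and Hapln4, and JA replicate 1 did not stand apart in either direction for Cux2. Slf2, a partner of the SMC5/6 complex in DNA repair, had 46.9, 41.0 and 41.1 CPM in JA, against 34.2, 35.5 and 32.9 CPM in UA (0.33 ± 0.08). Cux2 and Slf2 lay above every vehicle and sham library in all JA libraries. The others were the zinc finger gene Zfp955a (0.72 ± 0.15), the complement gene C2 (1.45 ± 0.34), Gpank1 (0.65 ± 0.15), Gse1 (0.32 ± 0.08), Atraid (0.42 ± 0.10), the SAGA complex gene Supt20 (0.34 ± 0.09) and Tmem131l (0.35 ± 0.09). For C2 and Atraid, as for Evc2, it was the UA libraries that all lay below every vehicle and sham library, for C2 by a small margin. Adjusted p was 0.999 for each of the 11 genes other than Evc2. With JA replicate 1 left out, the values of the 12 genes ran from 0.26 (Hapln4) to 1.26 (Evc2). For 6 of the 12 (C2, Gpank1, Gse1, Atraid, Supt20 and Slf2) an exon of another gene overlaps on the opposite strand, and without a stated strand setting the reads of such pairs cannot be told apart.

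The 12 genes chosen in the same way that were lower in JA included the mitochondrial genes Ndufa12, Ndufab1 and Tomm22. The share of mitochondrial genes among all tested genes was not counted, so no excess can be read from this. Ndufa12, a subunit of complex I of the respiratory chain, had 47.5, 51.8 and 63.1 CPM in JA, against 92.2, 84.4 and 70.9 CPM in UA (log2 fold change -0.61 ± 0.13, edgeR adjusted p = 0.999). Ndufab1, the mitochondrial acyl carrier protein and also a complex I subunit, had 52.3, 56.5 and 59.5 CPM in JA, against 78.6, 69.0 and 67.9 CPM in UA (-0.36 ± 0.08). Tomm22, a receptor of the outer membrane protein import channel, had 47.1, 52.1 and 54.2 CPM in JA, against 64.5, 65.0 and 61.5 CPM in UA (-0.32 ± 0.07). In these 3 genes every JA library lay below every sham library, as for Tomm22 with 61.8 to 69.5 CPM in sham, and vehicle libraries held 49.3 to 52.4 CPM of Tomm22. Without JA replicate 1 the values were -0.52 for Ndufa12, -0.31 for Ndufab1 and -0.26 for Tomm22.

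Sox9, a transcription factor of astrocytes and neural progenitors, had 17.4, 17.7 and 17.3 CPM in JA, against 22.1, 23.7 and 22.1 CPM in UA (-0.38 ± 0.09). Pls1, an actin bundling protein, had 11.6, 15.1 and 14.8 CPM in JA, against 24.8, 20.8 and 19.1 CPM in UA (-0.64 ± 0.14). For both Sox9 and Pls1 every JA library lay below every vehicle and sham library. Cplx3, a complexin of synaptic vesicle release, had 16.6, 14.2 and 16.6 CPM in JA, against 21.7, 21.5 and 23.0 CPM in UA (-0.48 ± 0.10). Dgkk, a diacylglycerol kinase, had 1.66, 1.80 and 1.71 CPM in JA, against 6.20, 5.42 and 2.51 CPM in UA (-1.45 ± 0.35), with UA replicate 3 close to the sham level of 2.61 to 2.92 CPM. The rest were Nexmif (-0.25 ± 0.06), the pantothenate kinase Pank3 (-0.26 ± 0.07), Zfp799 (-0.35 ± 0.09), the ribosomal protein paralogue Rpl22l1 (-0.39 ± 0.11) and the chromatin protein Hmga1 (-0.51 ± 0.14). For Nexmif and Zfp799 every UA library lay above every vehicle and sham library. Opposite-strand overlaps touch 4 of the 12 (Ndufab1, Zfp799, Rpl22l1 and Hmga1). With JA replicate 1 left out, the 12 values ran from -1.42 (Dgkk) to -0.22 (Nexmif). Over all genes without overlap, all JA libraries lay outside the range of the vehicle and sham libraries in 10.7% of those higher and 10.3% of those lower in JA, and all UA libraries in 9.33% and 5.40%.

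**Figure D1:**
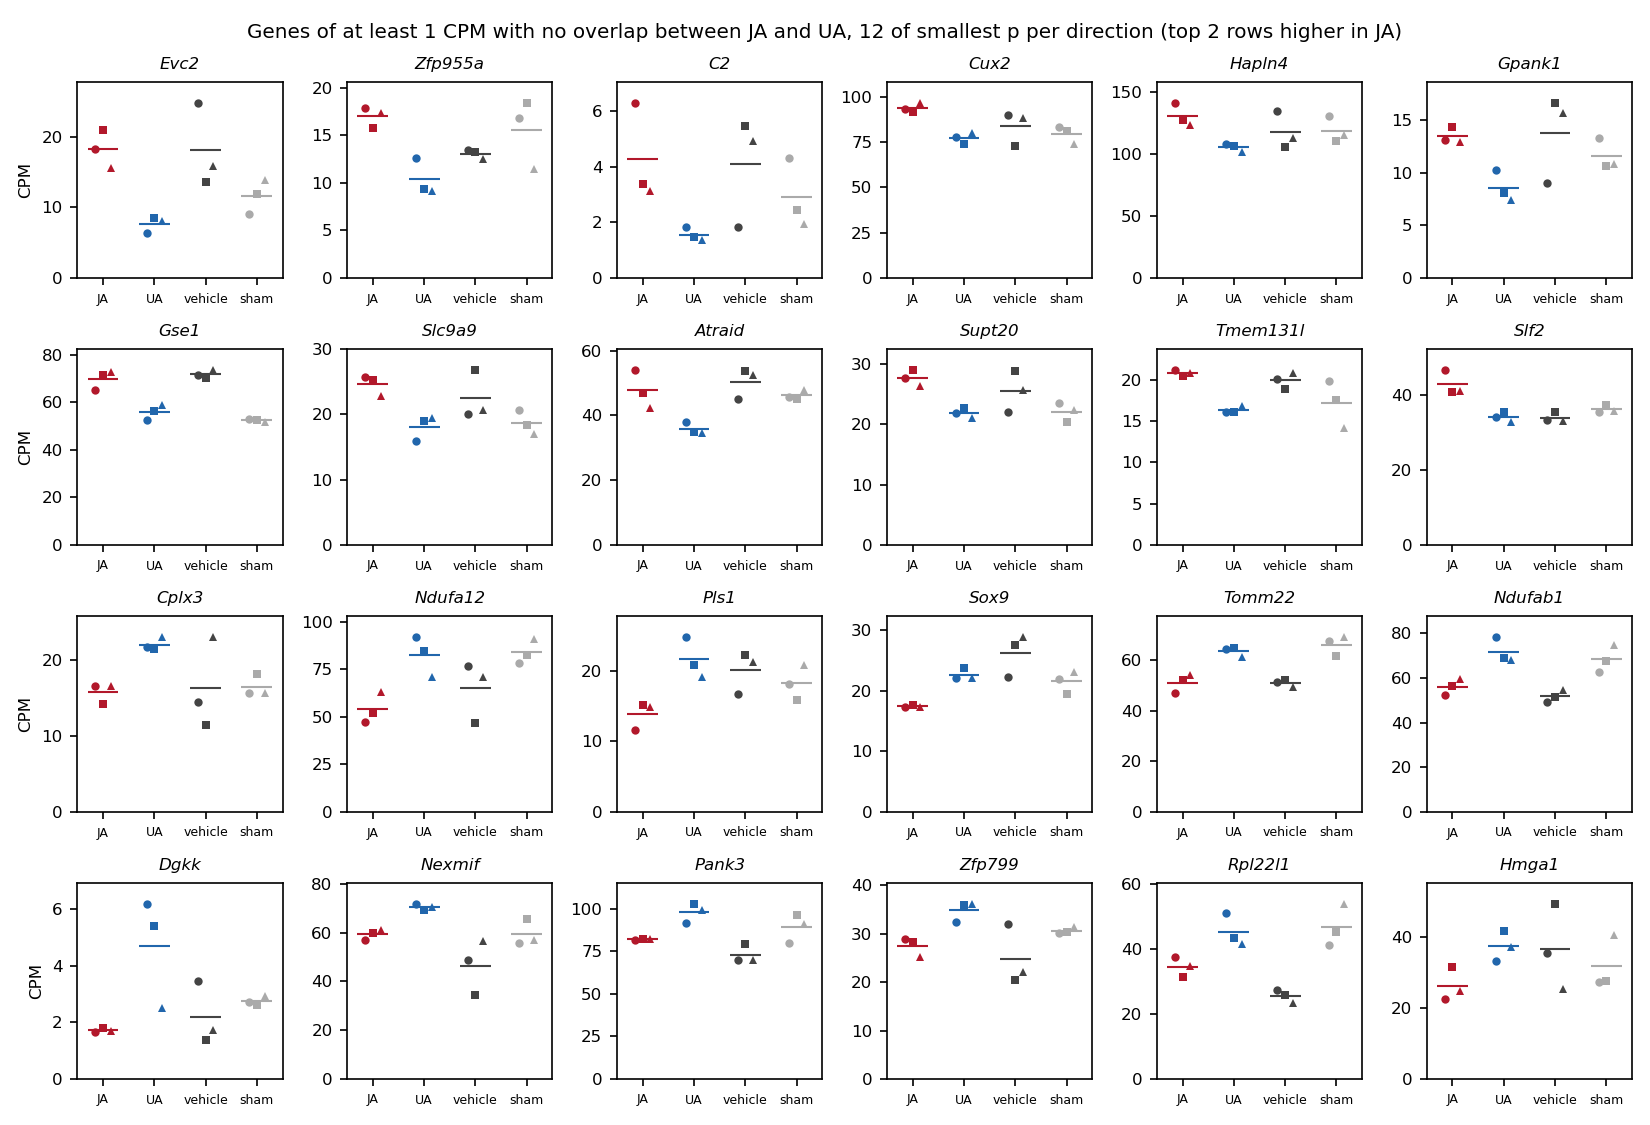
Level in CPM (linear axis from 0) of the 12 genes per direction with the smallest p among those with no overlap between JA and UA and a mean of at least 1 CPM, 1 panel per gene, with JA, UA, vehicle and sham from left to right. Each point is a library (circle, square and triangle for replicates 1, 2 and 3), and each line is the group mean. In every panel the 3 JA points lie on the same side of the 3 UA points, as for Evc2 at 15.5 to 20.9 CPM in JA and 6.37 to 8.42 CPM in UA.

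Genes of oxidative phosphorylation mostly had small negative fold changes. Of 23 tested, 22 had a negative fold change and 6 had all JA libraries below all UA libraries, beside 4.57% of all genes, with a list median of -0.13. None passed the threshold and 2 had an unadjusted p under 0.05 with a negative value, beside 1.46% of all genes. Those were Ndufb5, a complex I subunit, at -0.28 ± 0.11 and Cycs, cytochrome c, at -0.26 ± 0.10. Cycs had 80.5, 88.5 and 96.7 CPM in JA, against 120, 102 and 97.4 CPM in UA, so the nearest libraries differed by under 1 CPM. JA replicate 1 was the lowest of the 6 libraries in 19 of the 23 genes, and without it the median was -0.073 with 19 negative values, Ndufb5 was at -0.22 and Cycs at -0.20. UA replicate 1 was the highest in 20 of the 23, and without it the median was -0.084. The mean log2 level of the list, relative to the sham mean, was -0.277, -0.139 and -0.0776 in the JA libraries and 0.0770, -0.0939 and -0.0879 in the UA libraries, so the groups overlapped.

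Cytoplasmic ribosomal protein genes had negative values in 23 of 24, with a median of -0.09. Here JA replicate 1 was the highest of the 6 libraries in 11 genes and UA replicate 1 in 12. The median was -0.20 with all 24 negative without JA replicate 1, -0.034 without JA replicate 2, -0.026 without JA replicate 3 and -0.016 without UA replicate 1. JA replicates 2 and 3 lay below all UA libraries in 16 of the 24, beside 11.3% of all genes, and without JA replicate 1, 9 had an unadjusted p under 0.05, beside 2.91%. Rpl3 had 427, 351 and 446 CPM in JA, against 527, 646 and 483 CPM in UA, and was the member with no overlap in all 6 libraries (-0.44 ± 0.13, edgeR adjusted p = 0.999, and -0.47 without JA replicate 1). With all 6 libraries this was 1 of 24, near the 4.57% of all genes, and is no result about the list. Rplp0, the stalk protein, spread widely, with 216, 115 and 102 CPM in JA, against 248, 133 and 217 CPM in UA.

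Red blood cell genes had the list median farthest from 0. Hba-a1, an alpha globin gene, had 2.11, 18.2 and 13.5 CPM in JA, against 46.0, 35.1 and 115 CPM in UA (log2 fold change -2.54 ± 0.89, edgeR adjusted p = 0.999). Hbb-bs, a beta globin gene, had 2.86, 41.5 and 27.5 CPM in JA, against 81.6, 77.6 and 163 CPM in UA (-2.17 ± 0.92). Alas2, the erythroid enzyme of heme synthesis, had 0.0502, 2.41 and 1.49 CPM in JA, against 5.48, 4.29 and 13.9 CPM in UA, with JA replicate 1 at a level below the 3 counts taken as the floor of detection (0.154 CPM there). The groups did not overlap for these genes and for Hbb-bt, 4 of the 5 tested, beside 4.57% of all genes, and the list median was -2.18, or -1.66 without JA replicate 1. Sham libraries held 82.4 to 118 CPM of Hbb-bs, near the UA level, and vehicle libraries 1.96 to 86.6 CPM. Globin genes are near-identical copies among which reads may have been divided. The part of blood content in other differences was not tested.

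Circadian clock genes, which drive daily rhythms through E-box elements bound by CLOCK and its partner, lay slightly higher in JA. Of 16 tested, 14 had positive values with a median of 0.24, and without JA replicate 1 there were 15 with a median of 0.17. UA replicate 2 was the lowest of the 6 libraries in 11 of the 16, beside 1664 of all 14594 tested genes. The mean log2 level of the list, relative to the sham mean, was 0.163, 0.199 and 0.239 in the JA libraries. In the UA libraries it was -0.0338, -0.0990 and 0.129. With 1 library left out in turn, the median ran from 0.17 to 0.28. Nr1d2, a repressor of the loop, had 133, 126 and 140 CPM in JA, against 111, 104 and 118 CPM in UA (0.25 ± 0.08, edgeR adjusted p = 0.999). Cry1, a core repressor, had 18.6, 18.7 and 18.2 CPM in JA, against 16, 15.4 and 16.6 CPM in UA (0.21 ± 0.09). These 2 genes had no overlap between the groups, 2 of 16 beside 5.0% of all genes. Bhlhe40, a clock repressor that also responds to activity, had 131, 176 and 180 CPM in JA, against 126, 113 and 144 CPM in UA (0.35 ± 0.14). Per1, a period gene and also a target of glucocorticoids and of neuronal activity, had 89.0, 127 and 125 CPM in JA, against 78.0, 76.0 and 105 CPM in UA (0.40 ± 0.18). For Bhlhe40 and Per1, JA replicate 1 lay among the UA libraries and the other JA libraries lay above them. With JA replicate 1 left out, the values were 0.26 for Nr1d2, 0.21 for Cry1, 0.48 for Bhlhe40 and 0.54 for Per1. Sham libraries held 62.7 to 66.4 CPM of Per1, below every JA and UA library. The sources used here do not give the time of day of sampling.

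The E-box letters CACGTG read the same on both strands and occur in 7.15% of the 32851 RefSeq promoter windows. They occur in a window of 5 of the 14 clock genes that have one, namely Per1, Cry1, Tef, Ciart and Bhlhe41. A gene was counted if any of its windows, up to 3, matched, so this is not on the same footing as the share of windows. The window of Nr1d2 holds no match, and Bhlhe40 has no window. The windows of Cry1 (chr10:85185005-85185304, minus strand) and Per1 (chr11:69098699-69098998, plus strand) are shown as those of the named genes with a match, with the E-box in capitals (GRCm38.p6).
Cry1: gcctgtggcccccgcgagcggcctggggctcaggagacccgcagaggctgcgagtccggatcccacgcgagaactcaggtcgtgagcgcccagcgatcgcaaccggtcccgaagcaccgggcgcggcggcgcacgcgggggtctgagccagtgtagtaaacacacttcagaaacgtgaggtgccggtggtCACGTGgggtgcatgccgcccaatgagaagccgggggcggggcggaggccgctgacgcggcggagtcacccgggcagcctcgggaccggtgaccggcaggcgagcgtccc
Per1: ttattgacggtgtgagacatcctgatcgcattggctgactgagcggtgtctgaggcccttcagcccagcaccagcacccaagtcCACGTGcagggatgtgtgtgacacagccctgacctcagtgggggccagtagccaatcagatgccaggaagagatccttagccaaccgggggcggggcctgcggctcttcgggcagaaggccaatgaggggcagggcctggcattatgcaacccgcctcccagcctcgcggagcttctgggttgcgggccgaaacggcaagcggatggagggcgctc
A match shows that the letters are in the window and was not tied to the difference between JA and UA.

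By position, chromosome 17 held 16 of the 100 genes with the smallest p, against 4.83% of all tested genes with coordinates. Of those 16, 10 lay between 33 and 37 Mb (GRCm38), a window that was chosen after the values were seen and that holds the H2 genes of antigen presentation and several complement genes. The window had 127 tested genes, of which 16 (12.6%) had an unadjusted p under 0.05, against 3.31% of all genes with coordinates. After JA replicate 1 was left out these were 20 (15.7%), against 6.19%. No test of the window was made.

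H2-D1, a class I heavy chain gene of that window (Entrez 14964; chromosome 17, 35262730 to 35267499), had 115, 58.8 and 78.8 CPM in JA, against 24.5, 41.3 and 31.9 CPM in UA. Its groups did not overlap (log2 fold change 1.37 ± 0.31, edgeR adjusted p = 0.999), and DESeq2 called it with an adjusted p of 7.2e-05, while the 19 other alternatives gave 0.746 or above. Sham libraries ran from 40.7 to 102 CPM and vehicle libraries from 57.7 to 115 CPM, so the sham libraries alone spread widely. In CPM that spread was larger than the distance between the JA and UA means, and on the log2 scale it was slightly smaller. UA replicates 1 and 3 lay below every sham and vehicle library, and UA replicate 2 lay within the sham range. Without JA replicate 1 the value was 1.08. C2 had 6.32, 3.39 and 3.14 CPM in JA, against 1.83, 1.48 and 1.38 CPM in UA. Msh5, a meiotic mismatch repair homologue, differed the other way, with 0.351, 0.103 and 0.165 CPM in JA, against 0.665, 2.02 and 1.79 CPM in UA. For Msh5, JA replicate 2 lay below the floor of 3 counts (0.152 CPM there) and JA replicate 3 near it (0.162 CPM there). Msh5 reached the 10 counts of the filter only in the UA libraries, where it was higher. The filter therefore favoured a difference in that direction, and no direction of the window can be read from Msh5. Class I genes are near-identical copies, so the division of reads between H2-D1 and its relatives is uncertain. The 16 genes of this window with p under 0.05 ran in both directions, 10 higher and 6 lower in JA.

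**Figure D2:**
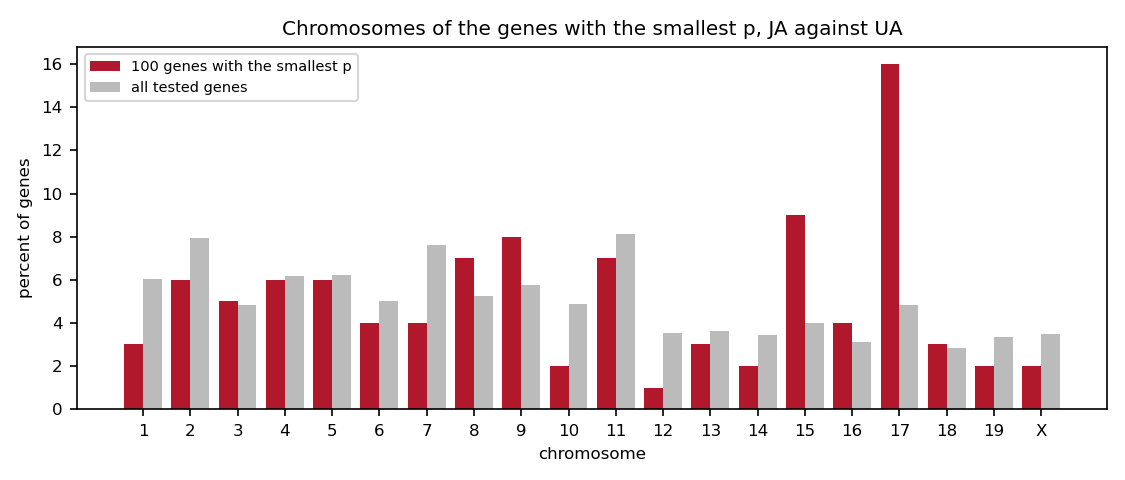
Percent of genes on each chromosome, for the 100 genes with the smallest p between JA and UA (red) and for all tested genes (grey). Chromosome 17 holds 16 of the 100 against 4.83% of tested genes, and chromosome 15 holds 9 against 3.97%.

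Genes of microglia and macrophages depended on JA replicate 1. Spp1, osteopontin, which activated microglia secrete, had 1405, 24 and 31.6 CPM in JA, against 11.5, 119 and 76.1 CPM in UA. Gpnmb, a glycoprotein of lipid-laden macrophages, had 518, 8.68 and 5.89 CPM in JA, against 3.55, 38.2 and 15.5 CPM in UA. JA replicate 1 lay within the vehicle range for both genes (999 to 3070 CPM and 232 to 1425 CPM), the other JA libraries lay just above the sham libraries (11.1 to 22.9 CPM and 2.71 to 4.54 CPM), and UA replicate 2 was the highest of the UA libraries. The log2 fold changes were 2.82 ± 2.05 for Spp1 and 3.21 ± 2.17 for Gpnmb with all 6 libraries, against -1.31 and -1.39 without JA replicate 1. The receptors Msr1 and Clec7a, the lectin Lgals3 and the myeloid genes Capg, Cd5l, Adam8, Siglec1 and Lilrb4a completed the 10 genes with the widest range over JA. Spp1, Gpnmb, Clec7a and Msr1 were also among the 10 with the widest range over UA.

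Among 28 tested genes of reactive microglia and macrophages, values were positive in 22, with a list median of 0.30. Leaving out JA replicate 1, 1 was positive and the median was -0.95, with 13 genes in which JA replicates 2 and 3 lay below all UA libraries, beside 11.3% of all genes. The mean log2 level of the list, relative to the sham mean, was 3.39, 0.546 and 0.163 in the JA libraries and 0.551, 2.30 and 1.05 in the UA libraries, with 3.58 to 5.06 in vehicle. The JA and UA libraries overlapped. Complement genes had a median of 0.33 over 14 tested genes, and of -0.63 without JA replicate 1. C1qb, a subunit of the first complement component, had 158, 32.6 and 28.2 CPM in JA, against 39.6, 91.8 and 49.6 CPM in UA. Chemokine and cytokine genes had medians of 0.037 and -1.08 in the same order, over 12 tested genes.

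Homeostatic microglia genes had a median of 0.040 over 12 tested genes, and of -0.38 without JA replicate 1, when 7 lay below all UA libraries, beside 11.3% of all genes. Selplg, a selectin ligand of microglia, had 59.5, 23.4 and 27.9 CPM in JA, against 44.8, 45.9 and 43.0 CPM in UA, and without JA replicate 1 it had the smallest p of all genes (log2 fold change -0.80, edgeR adjusted p = 0.220). With all 6 libraries its value was -0.27 ± 0.37. P2ry13, a purine receptor, had 33.7, 20.1 and 20.1 CPM in JA, against 30.1, 35.4 and 23.7 CPM in UA. Fcrls, a microglial Fc receptor-like gene, had 111, 40.0 and 37.8 CPM in JA, against 32.8, 30.5 and 42.2 CPM in UA, so JA replicates 2 and 3 lay among the UA libraries for it.

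**Figure D3:**
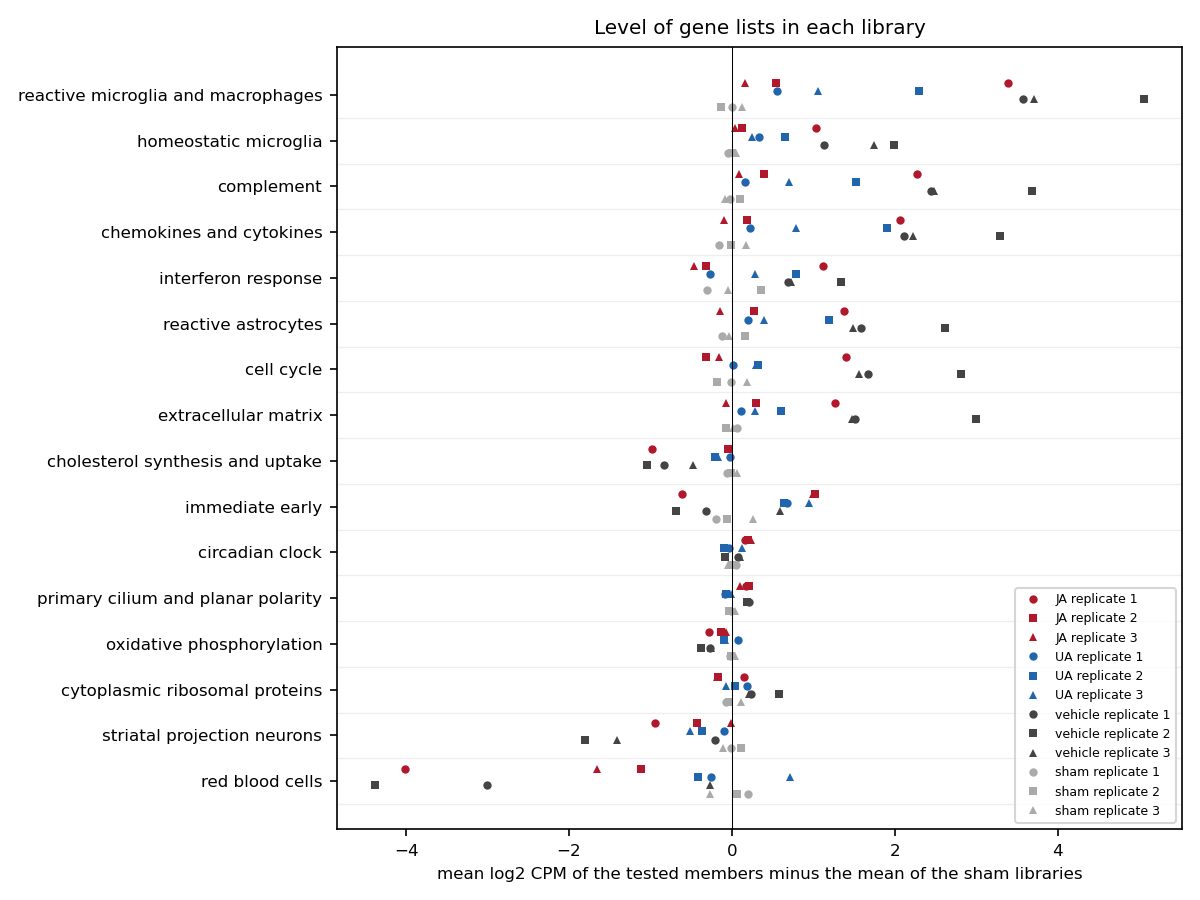
Mean log2 CPM of the tested members of 16 gene lists in each library, minus the mean of the 3 sham libraries. Each point is a library, with JA above UA, vehicle and sham within each list and shapes for replicates. For reactive microglia and macrophages JA replicate 1 lies at 3.39 beside the vehicle libraries, while the other JA libraries lie at 0.163 and 0.546.

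Reactive astrocyte, interferon, cell cycle and extracellular matrix genes were highest in JA replicate 1 in most members, 13 of 20, 13 of 16, 18 of 18 and 17 of 20 in that order. Gfap, the astrocyte intermediate filament, had 817, 302 and 163 CPM in JA, against 394, 954 and 419 CPM in UA (log2 fold change -0.46 ± 0.74, and -1.34 without JA replicate 1). The 20 reactive astrocyte genes had a median of 0.035, and of -0.46 without JA replicate 1. For the 16 interferon genes these were 0.045 and -0.58, for the 18 cell cycle genes 0.40 and -0.41, and for the 20 matrix genes 0.26 and -0.20. Mki67, a marker of dividing cells, had 14.9, 4.62 and 3.41 CPM in JA, against 4.21, 5.12 and 5.79 CPM in UA. Col5a1, a fibrillar collagen gene, and Lamb1, a laminin gene, had an unadjusted p under 0.05, at 0.82 ± 0.34 and 0.37 ± 0.16. They were 2 of the 20 matrix genes, beside 1.88% of all genes higher in JA at such a p. Without JA replicate 1, 0 matrix genes were higher at such a p and 1 was lower. Col5a1 had 15.7, 10.3 and 6.22 CPM in JA, against 4.49, 6.95 and 6.82 CPM in UA, and the groups overlapped. Leaving out JA replicate 1 gave 0.44 for Col5a1 and 0.22 for Lamb1.

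Genes of cholesterol synthesis and uptake ran in the opposite direction in JA replicate 1. That library was the lowest of the 6 libraries in 19 of 20 genes, and the list had 19 negative values with a median of -0.17, against 16 positive values and a median of 0.052 without it. Hmgcs1, an early enzyme of the pathway, had 145, 363 and 374 CPM in JA, against 446, 338 and 312 CPM in UA. For Hmgcs1, JA replicate 1 lay within the vehicle range of 120 to 255 CPM, and the other JA libraries lay among the UA libraries.

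Because ursodeoxycholic acid is a bile acid, genes of bile acid receptors, transport and metabolism were examined as a list. Of 25 listed, 11 passed the filter on low counts, and 8 had positive values with a median of 0.11, or -0.00039 without JA replicate 1. Cyp46a1, the neuronal cholesterol 24-hydroxylase, had 204, 209 and 226 CPM in JA, against 186, 189 and 199 CPM in UA (log2 fold change 0.15 ± 0.07, edgeR adjusted p = 0.999). Vdr, the vitamin D receptor that also binds a secondary bile acid, had 0.903, 0.565 and 0.550 CPM in JA, against 0.388, 0.296 and 0.359 CPM in UA (0.95 ± 0.45). These 2 of the 11 had no overlap with JA higher, beside 5.0% of all genes. Vdr reached the minimum count of the filter only in the JA libraries, where it was higher. The filter therefore favoured a difference in that direction for Vdr, and the count of 2 is no result about the list. Over the alternatives with no JA or UA library left out, the Vdr value ran from 0.097 to 0.96. Cyp7b1, an oxysterol hydroxylase, had 18.6, 15 and 17.4 CPM in JA, against 21.2, 18.7 and 17.8 CPM in UA, and the groups overlapped. Cyp46a1 was at 0.18 and Vdr at 0.68 without JA replicate 1. Genes of cholesterol efflux and liver X receptor targets had 14 positive values of 14 with a median of 0.18, but 6 of 14 and -0.049 without JA replicate 1. Apoe, the main lipoprotein of the brain, had 3527, 1392 and 1191 CPM in JA, against 1578, 1993 and 1542 CPM in UA.

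Immediate early genes, which neurons switch on within minutes of activity, set JA replicate 1 apart from the other JA libraries. Arc, a regulator of synaptic receptors, had 35.7, 384 and 295 CPM in JA, against 233, 214 and 274 CPM in UA. Egr3, a transcription factor, had 76.7, 190 and 154 CPM in JA, against 126, 106 and 127 CPM in UA. Fos, part of the AP-1 factor, had 4.97, 45.5 and 42.4 CPM in JA, against 34.1, 30.4 and 41.9 CPM in UA. For each of these genes JA replicate 1 was the lowest and JA replicates 2 and 3 the highest of the 6 libraries. Over the list, JA replicate 1 was the lowest in 17 of 18 genes and the median was -0.07, against 0.30 without it. JA replicates 2 and 3 lay above all UA libraries in 10 of 18 genes, beside 12.5% of all genes, and 9 had an unadjusted p under 0.05, beside 3.28%. Without JA replicate 1 the log2 fold change was 0.50 for Arc and 0.52 for Egr3, and 0 genes passed adjustment over all genes. With all 6 libraries the values were -0.01 ± 0.84 for Arc and 0.23 ± 0.34 for Egr3. Ier2 departed from the rest, with 5.47, 9.97 and 10.6 CPM in JA, against 11.1, 12.5 and 13.5 CPM in UA, all JA libraries below all UA libraries (-0.51 ± 0.24, and -0.27 without JA replicate 1).

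Without JA replicate 1, the 8 genes per direction with the smallest p among those with no overlap and a mean of at least 1 CPM were as follows. Higher were Evc2, Prag1, Gfod1, the sodium channel subunit Scn4b, the immediate early gene Ier5, the chaperone partner Dnajb5, Inka2 and Mtcl1. Ier5 had 41.6, 98.2 and 90.5 CPM in JA, against 71.6, 66.7 and 69.1 CPM in UA, and Dnajb5 had 89.8, 206 and 202 CPM in JA, against 143, 137 and 160 CPM in UA. Gfod1 had 127, 169 and 162 CPM in JA, against 124, 126 and 122 CPM in UA, and did not overlap in all 6 libraries (0.30 ± 0.11). Lower were Selplg, the metallothionein Mt1, the ciliary gene Bbs4, Rgcc, Dynlt1f, the immune receptor Slamf9, Cplx3 and the class II gene H2-DMa. Mt1 had 183, 104 and 106 CPM in JA, against 161, 139 and 133 CPM in UA, and JA replicate 1 was the highest of the 6.

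**Figure D4:**
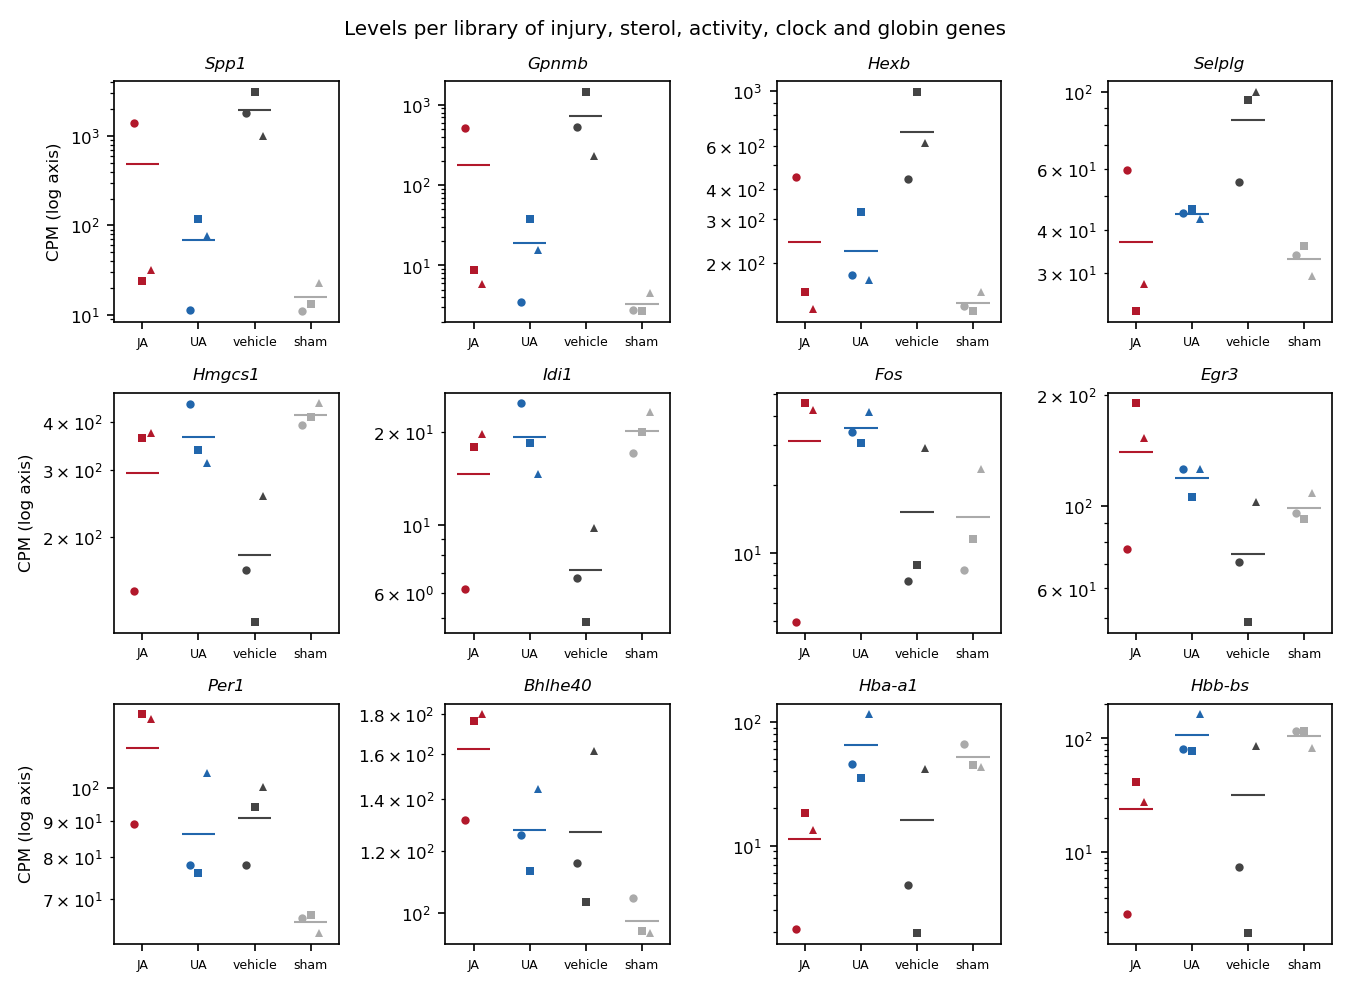
Level in CPM (log axis) of 12 genes of microglia, sterol synthesis, neuronal activity, the clock and red blood cells, with JA, UA, vehicle and sham from left to right. Points are libraries (circle, square and triangle for replicates 1, 2 and 3) and lines are group means. JA replicate 1, the circle in JA, lies far from the other JA libraries in Spp1 (1405 CPM against 24 and 31.6 CPM) and Fos (4.97 CPM against 45.5 and 42.4 CPM).

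Among the remaining lists, 3 of 18 genes of GLP-1, insulin and IGF signalling had an unadjusted p under 0.05 and were higher in JA, beside 1.88% of all genes. The list median was 0.077, or 0.044 without JA replicate 1. Among 14 neurotrophin and plasticity genes, 2 had such a p and were lower in JA, beside 1.46%, and the list median was -0.043, or 0.036 without JA replicate 1. Irs2, an insulin receptor substrate, had 69.4, 84.3 and 87.0 CPM in JA, against 63.0, 59.9 and 70.7 CPM in UA (log2 fold change 0.31 ± 0.10, edgeR adjusted p = 0.999), and JA replicate 1 lay below UA replicate 3. Ngfr, the low-affinity receptor shared by the neurotrophins, had 1.66, 2.0 and 2.48 CPM in JA, against 5.71, 4.04 and 2.41 CPM in UA, and JA replicate 3 lay above UA replicate 3 (-0.98 ± 0.35). In the endothelium list, 1 of 14 genes had such a p and was higher in JA, beside 1.88% of all genes. In the interneuron list, 1 of 11 had such a p and was lower, beside 1.46%. Mfsd2a, the endothelial lipid transporter of the blood-brain barrier, had 22.7, 23.1 and 23.1 CPM in JA, against 21.1, 18.6 and 19 CPM in UA (0.23 ± 0.09). Calb2, calretinin of interneurons, had 28.4, 28.7 and 25.4 CPM in JA, against 41.2, 39.8 and 28.9 CPM in UA (-0.41 ± 0.14). The groups did not overlap for Mfsd2a and Calb2, which were 1 of 14 beside 5.0% of all genes and 1 of 11 beside 4.57%. A count of 1 in lists this short is no result about the list. Leaving out JA replicate 1 gave 0.41 for Irs2, -0.85 for Ngfr, 0.24 for Mfsd2a and -0.43 for Calb2.

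Markers of neighbouring structures also varied between the libraries. The 3 tested pituitary genes had a median of 0.96, or 0.53 without JA replicate 1, and Pomc, the precursor of corticotropin, had 4.36, 1.90 and 2.37 CPM in JA, against 1.22, 1.72 and 1.49 CPM in UA. Over 7 tested hypothalamic genes the mean log2 level relative to sham was -0.698, -0.387 and -0.999 in JA and 0.527, 0.869 and -0.963 in UA. UA replicate 2 was the highest of the 6 libraries in 6 of 7 cerebellar genes. UA replicate 1 was at 1.02 for choroid plexus genes, against -0.613 and -0.606 in the other UA libraries. The part of the tissue sampled in the differences between JA and UA was not tested. A few genes were far from the rest in a lone UA library. Rpl35a, a ribosomal protein gene, had 90.1 CPM in UA replicate 2 and 8.89 to 12 CPM in the other 5 libraries, and Rnaset2b, a ribonuclease gene, had 30 CPM there and 1.44 to 5.07 CPM elsewhere.

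**Figure D5:**
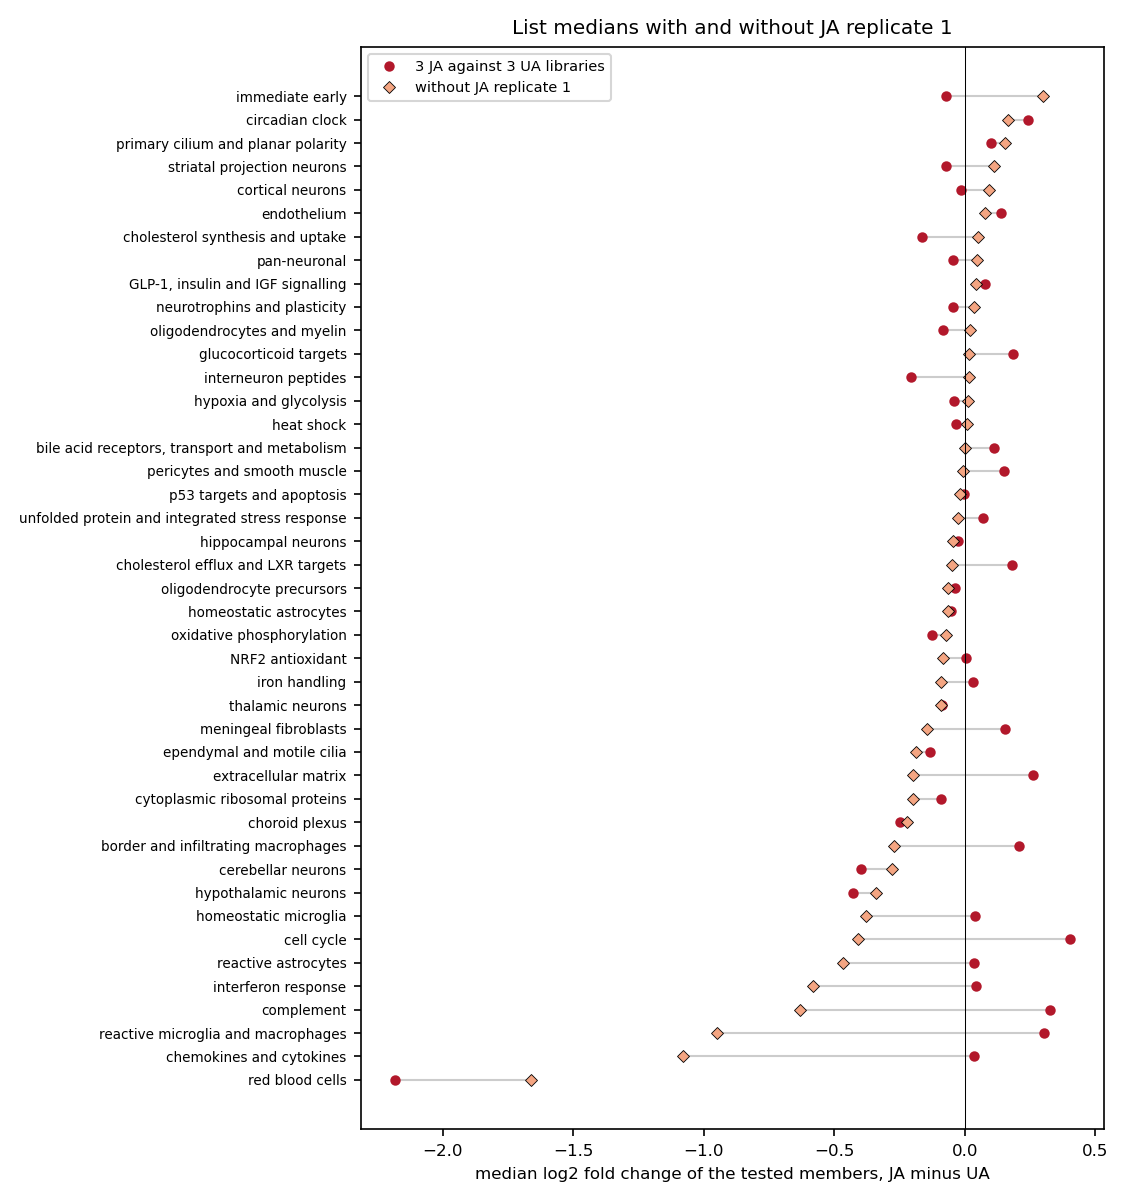
Median log2 fold change, JA minus UA, of the tested members of the gene lists with at least 5 tested members. Circles use all 6 libraries and diamonds leave out JA replicate 1. Of all 45 lists, 26 medians changed sign without that library, among them reactive microglia and macrophages (0.30 and -0.95), while red blood cells stayed at the low end (-2.18 and -1.66).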

How the data were processed

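Brain messenger RNA was sequenced from stranded libraries (TruSeq Stranded mRNA kit, per the labels). The deposited count values are whole reads per gene, not normalized, per the file headers. The deposited FPKM values, named so per the file headers, were scaled by length and depth before deposit and were used only in alternatives. Per the submitters' processing notes, the build was GRCm38 (mm10) and the tools included HISAT2, Trimmomatic, DESeq and Cufflinks, with no roles or versions. The sources used here name no counting tool, strand setting or annotation. The replicate numbers are those of the labels. 1 sample column matched no sample and was not used.

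The 3 JA and 3 UA libraries were compared with edgeR 4.0.16 (R 4.3.3) on genes with at least 10 counts in 3 libraries, using TMM factors, robust quasi-likelihood fits, a prior count of 2, and Benjamini-Hochberg adjustment over 14594 genes at 0.05. Fold changes are log2, JA minus UA. The SE is the absolute log2 fold change over the square root of edgeR's F. CPM uses TMM-scaled library totals. The floor of 3 counts, over unscaled totals, was 0.147 to 0.164 CPM and covers counting error only. An exact permutation test of 3 against 3 cannot go below 0.1. The alternatives were DESeq2 1.42.0, limma 3.58.1 (voom, and log2 FPKM + 1 or + 0.1), other scaling factors, filters and library sets, no robust estimation, a GC correction, a replicate block, and each library left out. The 45 gene lists and the rules for named genes were chosen with earlier results of these data known. Named genes were the 12 per direction with no overlap between groups, a mean of at least 1 CPM and the smallest p, from each list described the 4 members of smallest p and the 2 of highest level, the 10 with the widest range over each group at a mean of at least 5 CPM, and the 8 per direction of smallest p without JA replicate 1 under the same limits as the 12. H2-D1, Msh5 and Fos fall outside these rules and were chosen after their values were seen. On simulated counts over 14594 genes the 6-library fit recovered 72% of 2-fold and 93% of 4-fold changes, with 8 false among 173 calls. The fit without JA replicate 1 recovered 82% and 94%, with 24 false among 200 calls, a share above the 0.05 aimed at. No simulated library stood apart from its group as JA replicate 1 did, so these shares may not hold for the real libraries. Coordinates are from GENCODE M21 (GRCm38), matched for 18522 genes, and promoter windows from RefSeq. Globins and class I H2 genes are near-identical copies and are uncertain, as are Ndufb5, Alas2, Bhlhe40, Hmgcs1, Irs2 and Col5a1, which another gene overlaps on the opposite strand. Some items that the rules name are not reported here.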

Additional observations from a re-analysis of the deposited data

How the results depend on the processing

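Across 20 alternatives, edgeR and limma called 0 genes, and the DESeq2 Wald test called 2 (Evc2 and H2-D1). A replicate block, added to the edgeR fit, called 0 genes, with 368 at an unadjusted p under 0.05. Deviations of same-numbered libraries from their group means correlated at -0.30, -0.27 and 0.12, and those of differently numbered libraries at -0.33 to 0.42. JA replicate 1 weighs on these values, and they cannot show whether the numbers pair the samples. Against 487 genes with an unadjusted p under 0.05, there were 902 without JA replicate 1, 321 without JA replicate 2, 799 without JA replicate 3, 278 without UA replicate 1, 318 without UA replicate 2, 606 without UA replicate 3, 322 with all 15 libraries in 1 fit and 589 when JU replicate 1 was left out of that fit. Of 53 genes named with a fold change, 48 kept their sign throughout and 4 changed it only with a library left out. With a library left out, Spp1 ran from -1.31 to 3.47, Gpnmb from -1.39 to 4.21, Gfap from -1.34 to 0.072, Arc from -0.54 to 0.50 and Egr3 from -0.055 to 0.52. Under the replicate block Spp1 was -0.077. Of 45 list medians, 26 changed sign without JA replicate 1, and 37 moved by no more than the spread between replicates in every alternative. That spread was the pooled standard deviation of the list level within JA and within UA. JA replicate 1 is part of it and widens it for lists where that library stood apart, so the 37 does not show stability. The medians of the chemokine, interferon, homeostatic microglia and reactive astrocyte lists, near 0, also changed sign in other alternatives, and that of reactive microglia was -0.056 under the replicate block. The causes were not tested. Changes below 2-fold were not simulated, so the fit's reach for them is not known.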
